A study of Mus musculus with 36 samples.

Results

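BPTF is the largest subunit of NURF, the chromatin remodeling complex that slides nucleosomes with the ATPase SMARCA1 or SMARCA5. BPTF carries domains that bind modified histones and so brings NURF to chromatin, and loss of BPTF is known to change different genes in different cell types. Small leucine-rich proteoglycans and fibrillar collagens, which recur below, build the extracellular matrix, and in a mammary tumor they can be made by host fibroblasts and by carcinoma cells.

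The data described here are the 18 of 36 tumors of the series that were grown in NSG mice, chosen by strain and cell line from the sample labels. They address whether BPTF knockdown (KD) changed a gene differently in 2 mouse mammary carcinoma lines, 67NR and 66cl4, in the same host. Female NSG mice (NOD/SCID/Ifrg2r -/-) lack T, B and NK cells, and cells were placed in the fourth mammary fat pad. The groups were 3 control and 6 BPTF KD tumors of 67NR, taken on day 21, and 3 control and 6 BPTF KD tumors of 66cl4, taken on day 28. BPTF was knocked down with 2 shRNAs carried by a retrovirus, and control cells of the study carried control shRNAs. The labels do not say which shRNA a tumor carried, so the 6 KD tumors of a line may differ in shRNA. More 67NR than 66cl4 cells were injected, so cell line, inoculum and day of harvest cannot be told apart. The other 18 tumors, the same design in BALB/c mice, which have T, B and NK cells, were set beside these.

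RNA of each tumor was read on 1 Affymetrix array, and values are log2 signals on the RMA scale, 1 probe set for each of 12394 genes. A KD effect is the mean of the KD tumors of a line minus the mean of its controls. The line difference is the KD effect in 67NR minus the KD effect in 66cl4, so a positive value means a higher value after KD in 67NR relative to 66cl4. Errors of effects are standard errors from one limma fit of the 18 tumors, and p-values carry Benjamini-Hochberg adjustment over the 12394 genes, with a threshold of 0.05. Nothing states that the tumors of a group came from separate cell preparations, so p-values measure the spread between tumors.

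Arrays of the NSG tumors correlated at 0.9259 to 0.9961 with each other. The mean level of 12 NK cell markers was 4.50 to 5.18 in NSG and 6.15 to 8.93 in BALB/c tumors, and that of 13 T cell markers was 4.98 to 5.38 and 5.83 to 9.13. The mean of 9 B cell markers overlapped between hosts, at 5.21 to 5.79 and 5.52 to 7.81. The fifth KD tumor of 67NR and the fifth KD tumor of 66cl4 deviated from their group means together (r = 0.70 across genes, which are not independent). They had the smallest gap between the 3′ and 5′ control probe sets of actin and Gapdh, a sign of less degraded RNA, at 0.41 and 0.45 against up to 0.81 in 67NR and 0.755 in 66cl4 KD tumors. That gap was 0.49 ± 0.04 in 67NR controls and 0.62 ± 0.16 in 67NR KD tumors, and 0.64 ± 0.04 and 0.62 ± 0.13 in 66cl4 (mean ± stdev). Its line difference was 0.16 (p = 0.222, two-sided exact permutation test within lines).

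The targeted gene was read first. On its brightest probe set, Bptf was at 10.17, 9.37 and 9.75 in 67NR controls and at 9.15 to 10.01 (median 9.41) in 67NR KD tumors. It was at 9.15, 9.18 and 9.14 in 66cl4 controls and at 8.56 to 9.15 (median 8.80) in 66cl4 KD tumors. In 67NR, 3 of 6 KD tumors lay below every control, and in 66cl4 5 of 6 did. The KD effect was -0.27 in 67NR (p = 0.321) and -0.33 in 66cl4 (p = 0.0595), and the line difference was 0.07 (p = 0.836), all by two-sided exact permutation tests with 84 arrangements in a line and a smallest possible p of 0.0119. The lowered mean thus followed the labels in both lines on this probe set without passing a test in either.

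The other probe sets of Bptf were not alike. Probe set 1427310_at gave -0.76 in 67NR (p = 0.155) and -0.38 in 66cl4 (p = 0.202), and 1427311_at gave -0.78 (p = 0.143) and -0.29 (p = 0.262) by the same exact permutation test. The fourth, 1439102_at, was higher in 6 of 6 KD tumors of 66cl4, by 0.30 (exact permutation p = 0.0119, the smallest possible), and gave 0.06 in 67NR (p = 0.726). The line difference on these 3 probe sets was -0.38, -0.48 and -0.24, with exact permutation p of 0.535, 0.406 and 0.286. After adjustment over the 7 line differences of Bptf and the integrity measures, p ran from 0.568 to 0.836. The fifth KD tumor of each line had the highest Bptf level of their group on the brightest probe set, 10.01 in 67NR and 9.15 in 66cl4, and the array gives no measure of the protein.

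**Figure D1:**
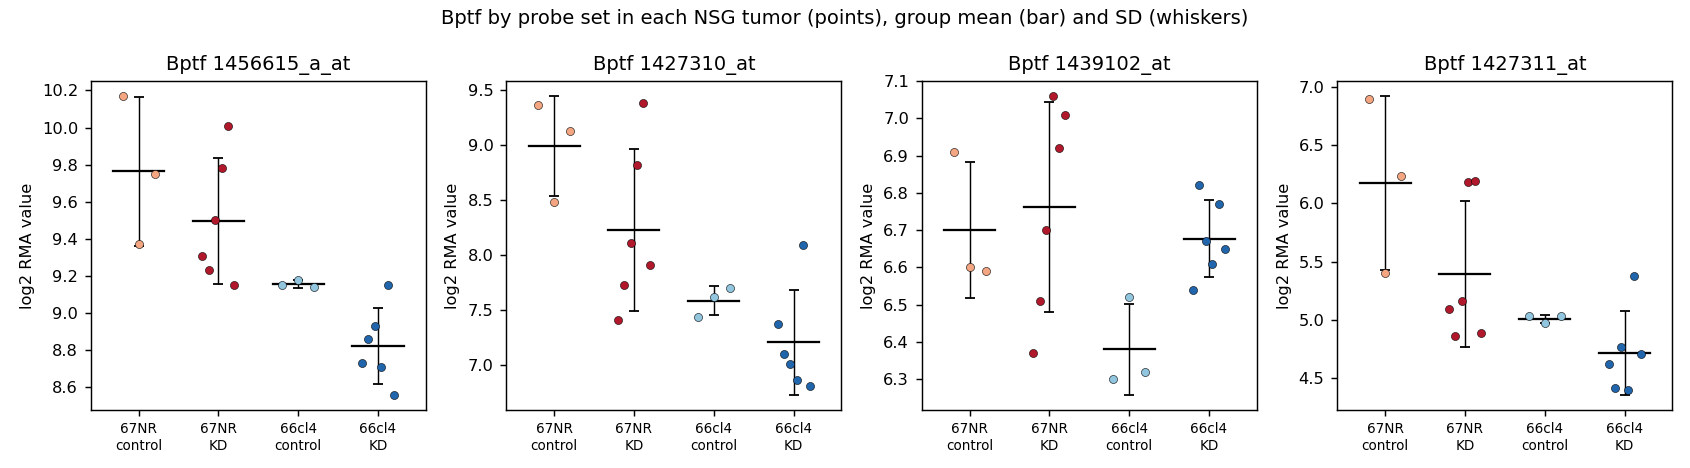
Log2 level of the 4 Bptf probe sets in each NSG tumor, with 3 control and 6 BPTF KD tumors per line, and the mean and SD of each group. On 1456615_a_at the KD tumors reach from 9.15 to 10.01 in 67NR and from 8.56 to 9.15 in 66cl4, and on 1439102_at all 6 KD tumors of 66cl4 lie above their controls.

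BPTF KD effects passed the test for genes in 67NR tumors and for none in 66cl4 tumors, in counts that moved with single tumors and with array weights. Of 12394 genes, 484 passed the threshold in 67NR (3.91%), 253 higher (2.04%) and 231 lower (1.86%). In 66cl4, 0 genes passed (0.0%, limma), and the smallest adjusted p was 0.546, with 816 genes (6.58%) at an unadjusted p under 0.05. The 67NR counts became 70 and 59 without the third 67NR control, 95 and 87 without the first, and 541 and 440 without the fifth KD tumor. With array weights 1250 and 1043 genes passed in 67NR, and 1141 higher and 600 lower in 66cl4.

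An effect past the threshold in 67NR and not in 66cl4 does not show that the lines differ. The line difference itself passed for 119 genes (0.96%), 72 with a positive value (0.581%) and 47 with a negative value (0.379%). Without the fifth KD tumor of each line, an alternative chosen after the data were seen, 139 and 79 genes passed, among them 70 and 45 of the same genes. In one fit with the BALB/c tumors, which then share the estimate of the spread, 4 and 1 passed, and with array weights 758 and 697. Leaving out the second 67NR control gave 185 and 132, the fifth 67NR KD tumor 143 and 83, the second 66cl4 control 28 and 11, and the third 67NR control 23 and 13. The counts were 31 and 13 without the first 67NR control and 29 and 12 without the first 66cl4 control. Leaving out the first 67NR KD tumor gave 41 and 20, and the fourth 66cl4 KD tumor 47 and 19. The negative count alone moved by over 1.5 times, to between 19 and 31, without the third 67NR KD tumor, the third 66cl4 control or 66cl4 KD tumor 1, 2, 3 or 6.

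For most of these genes the larger change was in 67NR. Among the 72 positive genes the median KD effect was 1.05 in 67NR and -0.23 in 66cl4, and the 67NR effect was the larger in 69. In 67NR all 72 had a positive KD effect, and 67 of them passed the threshold there, where 2.04% of all genes rose past it. Among the 47 negative genes the median was -1.08 in 67NR and 0.20 in 66cl4. All 47 had a negative KD effect in 67NR, and 44 of them passed the threshold there, where 1.86% of all genes fell past it. The 66cl4 effect had the opposite sign in 61 of the 72 genes and in 40 of the 47. Both KD effects are part of the line difference that chose the genes. The choice thus favors the signs in both lines and the passing in 67NR, and these counts are a description.

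**Figure D2:**
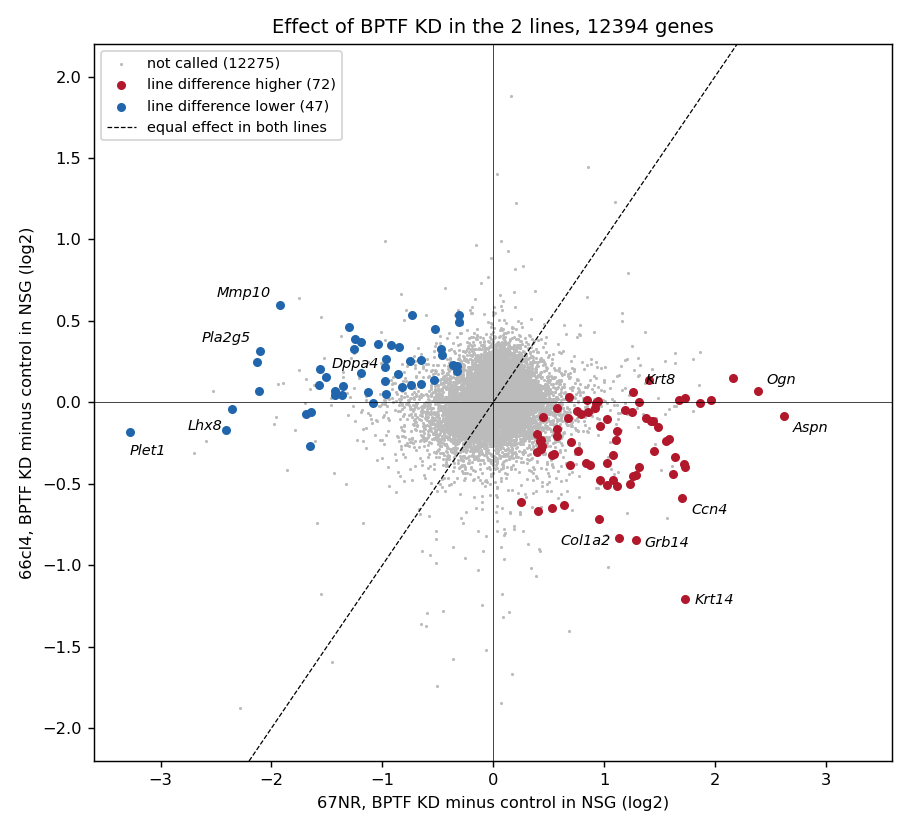
KD effect in 66cl4 against KD effect in 67NR tumors of NSG mice (log2, KD minus control), 1 point per gene, with the dashed line marking equal effects. The 72 red genes (positive line difference) and the 47 blue genes (negative) spread mainly along the 67NR axis, and the 12275 other genes are gray.

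Several genes of the extracellular matrix were among the positive genes. Of 12 small leucine-rich proteoglycans measured out of 18 listed, 2 passed as positive and 0 as negative, and the median line difference was 1.23 against -0.01 over all genes. In 67NR alone 5 of the 12 rose past the threshold, where 2.04% of all genes did. Both members with a called line difference, osteoglycin (Ogn) and asporin (Aspn), lie close together on chromosome 13, with 63.6 kb between their start sites. The 1 coding gene between them is Omd, of the same family, whose line difference was not called. Asporin binds collagen and inhibits TGF-beta signaling, and osteoglycin is a corneal and bone matrix proteoglycan that shapes collagen fibrils.

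The sequences before the start sites of Ogn and Aspn are shown because these 2 nearby genes moved together. They are the 250 bases upstream of the RefSeq start on the plus strand of GRCm38.p6, at chr13:49607765-49608014 and chr13:49544193-49544442, with capitals marking TATAAA or TGANTCA on either strand.
Ogn: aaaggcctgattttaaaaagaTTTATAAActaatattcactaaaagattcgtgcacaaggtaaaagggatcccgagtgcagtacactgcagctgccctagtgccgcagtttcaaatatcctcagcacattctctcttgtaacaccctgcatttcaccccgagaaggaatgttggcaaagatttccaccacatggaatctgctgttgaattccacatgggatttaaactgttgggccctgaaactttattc
Aspn: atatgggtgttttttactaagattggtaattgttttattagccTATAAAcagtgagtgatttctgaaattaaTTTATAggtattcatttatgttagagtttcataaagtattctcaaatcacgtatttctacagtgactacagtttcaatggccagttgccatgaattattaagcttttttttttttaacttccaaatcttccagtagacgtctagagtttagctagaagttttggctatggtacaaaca
TATAAA, the letters of the TATA box, stood at positions -229 and -227 of Ogn on opposite strands, which overlap, and at -207 and -178 of Aspn. These are matches of letters far from the start, and nothing shows that they act as a TATA box. TGANTCA, which allows any base in the middle of the AP-1 motif TGAGTCA or TGACTCA, was in neither window. Both motifs were searched on both strands from 250 bases before to 50 after the start, and they were chosen with the values known. TATAAA was in 10.1% and TGANTCA in 6.27% of the 9883 windows that matched a gene on the array, in 21.1% and 3.51% of 57 windows of the positive genes, and in 12.8% and 10.3% of 39 windows of the negative genes.

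Ogn was at 10.98, 11.72 and 10.56 in 67NR controls and at 12.67 to 14.00 (median 13.56) in 67NR KD tumors. Osteoglycin in 66cl4 was at 14.13, 14.12 and 14.23 in controls and at 13.96 to 14.39 (median 14.25) in KD tumors. All 67NR KD tumors thus lay above their controls, the highest of them within the range of 66cl4 KD tumors, while the 66cl4 groups overlapped. The line difference was 2.31 ± 0.34 (adjusted p = 0.00235), from a 5.22-fold rise in 67NR and a ratio of 1.05 in 66cl4.

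Aspn was at 8.72, 8.61 and 8.63 in 67NR controls and at 9.88 to 12.24 (median 11.47) in KD tumors. It was at 11.96, 11.70 and 12.10 in 66cl4 controls and at 11.30 to 12.25 (median 11.86) in KD tumors. Again the 67NR groups did not overlap and the 66cl4 groups did. This gave a line difference of 2.70 ± 0.49 (adjusted p = 0.0128), and the rise in 67NR was 6.14-fold. The gap between the lines in Aspn was -3.27 in controls (67NR minus 66cl4) and -0.57 in KD tumors. Aspn was read from a probe set of the _s_at kind, which can bind related transcripts.

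Other proteoglycans rose in 67NR without a called line difference. Omd, osteomodulin, rose by 1.65 in 67NR (adjusted p = 0.0127), with a line difference of 1.67 (adjusted p = 0.146). Dcn, decorin, rose by 1.80 in 67NR (adjusted p = 0.0275), with all 6 KD tumors at 13.60 to 14.18 above controls at 12.24, 11.99 and 11.61. Its 66cl4 controls were spread, at 12.09, 11.34 and 9.19, and its line difference was 1.85 ± 0.63 (adjusted p = 0.224). Bgn, biglycan, gave 1.80 (adjusted p = 0.321) and Lum, lumican, 0.93 (adjusted p = 0.783). Epyc, Chad, Kera and Optc lay between -0.05 and 0.20.

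Among 26 collagens and collagen-modifying enzymes, 2 passed as positive and 0 as negative. A positive value was found for 22, where 47.5% of all genes had one, and the median was 0.89. In 67NR 9 of the 26 rose past the threshold, where 2.04% of all genes did. Col1a2 encodes the second chain of type I collagen. It was at 12.88, 12.74 and 11.89 in 67NR controls and 13.13 to 14.31 (median 13.44) in KD tumors, and at 11.41, 11.50 and 11.10 in 66cl4 controls and 10.15 to 10.97 (median 10.52) in KD tumors. The groups of each line were separate, and the KD effects had opposite signs. Its line difference was 1.97 ± 0.36 (adjusted p = 0.0128), with 1.14 in 67NR (adjusted p = 0.0157) and -0.83 in 66cl4 (unadjusted p = 0.0045). The 66cl4 value is part of the line difference that chose the gene, and no gene passed adjustment in 66cl4.

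Col5a2, a chain of type V collagen that sets fibril diameter, was at 11.35, 11.14 and 10.59 in 67NR controls and at 12.10 to 13.10 (median 12.20) in KD tumors. Its 66cl4 levels were 11.84, 11.89 and 11.41 in controls and 11.35 to 11.80 (median 11.63) in KD tumors. The 67NR groups were apart and the 66cl4 groups overlapped, with a line difference of 1.53 ± 0.32 (adjusted p = 0.0284). Col1a1 gave 2.27 (adjusted p = 0.0931), Serpinh1, the collagen chaperone, 1.46 (adjusted p = 0.0676), and Loxl1, a cross-linking enzyme, 1.06 (adjusted p = 0.0511).

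Further matrix genes passed singly. Of 25 elastic fiber and matricellular genes 1 passed, the Wnt-induced matricellular gene Ccn4, at 8.10, 8.67 and 7.60 in 67NR controls against 9.14 to 11.04 (median 9.67) in KD tumors. In 66cl4 it was at 7.91, 7.82 and 7.36 in controls and at 6.80 to 7.38 (median 7.19) in KD tumors, and the line difference was 2.29 ± 0.45 (adjusted p = 0.0203). Emilin1, an elastic fiber glycoprotein, gave 1.63 ± 0.22 (adjusted p = 0.00191) and the matrilin gene Matn2 2.10 ± 0.43 (adjusted p = 0.0284). Fbln1, fibulin 1, fell in 67NR by 0.96 (adjusted p = 0.00141) with a line difference of -0.90 (adjusted p = 0.0573). Of 17 basement membrane genes 0 passed, with a median of 0.20.

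The matrix metalloproteases were split: of 21 proteases and inhibitors 1 passed as positive and 1 as negative. Mmp14, a membrane-bound protease that cleaves collagen and activates MMP2, was at 10.15, 10.08 and 9.83 in 67NR controls and at 10.62 to 11.08 (median 10.66) in KD tumors. Its 66cl4 levels were 9.63, 9.75 and 9.64 in controls and 9.41 to 9.86 (median 9.59), and the line difference was 0.81 ± 0.19 (adjusted p = 0.0447). It passed in 6 of the 18 fits without 1 tumor and in 6 of 11 other alternatives. Mmp2 gave 2.01 ± 0.52 (adjusted p = 0.0801). Mmp10, stromelysin 2, went the other way and is given with the negative genes.

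Fibroblast markers were read beside these matrix genes. Of 19 markers 16 had a positive line difference, where 47.5% of all genes did, and 0 passed, with a median of 0.32. Their mean level was 8.96 to 9.22 in 67NR controls and 9.14 to 9.64 in 67NR KD tumors, and 8.74 to 9.02 and 8.58 to 8.98 in 66cl4. In bulk tumors fewer cells of a type and less RNA per cell cannot be told apart, and the part of fibroblasts in the matrix result was not tested. Of 12 smooth muscle and pericyte markers 0 passed (median 0.19), and of 15 endothelial markers 0 passed (median 0.18).

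**Figure D3:**
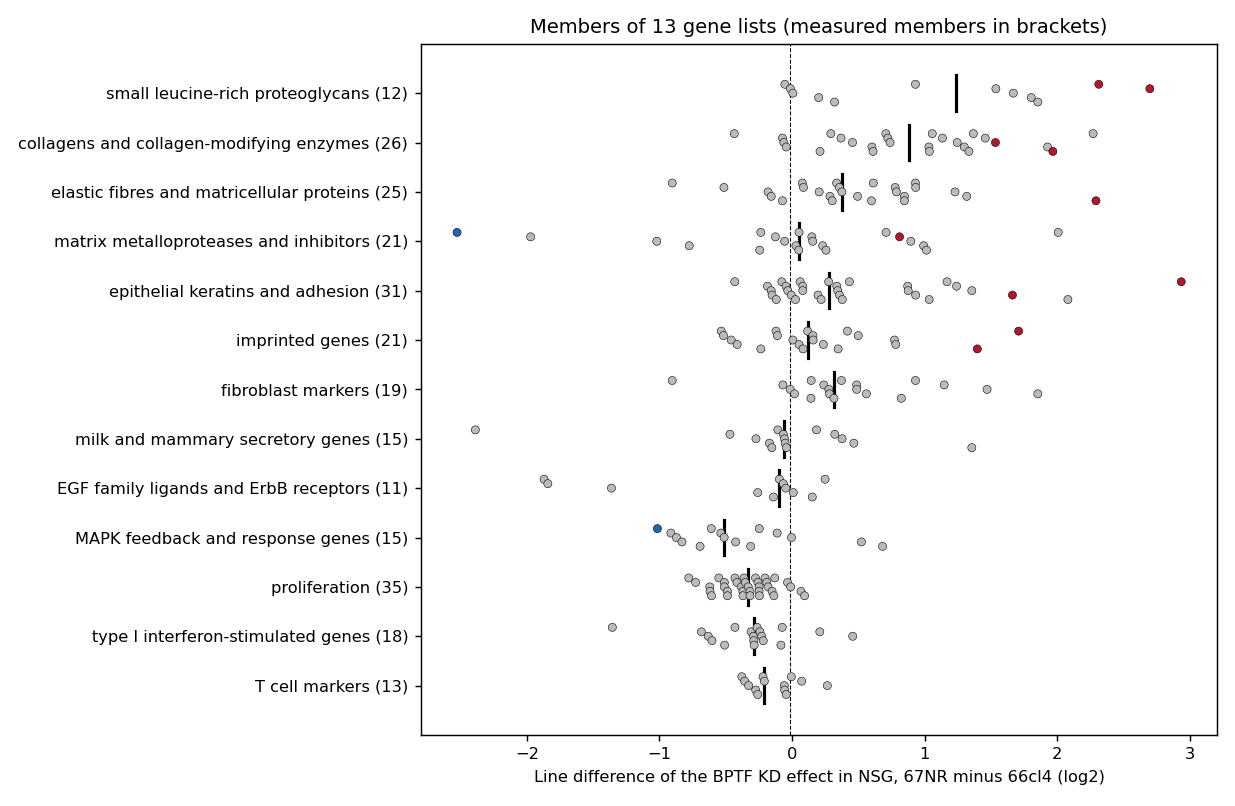
Line difference of the KD effect in NSG (log2, 67NR minus 66cl4) of each measured member of 13 gene lists, 1 point per gene, with a black bar at the list median and a dashed line at the median of all genes. Small leucine-rich proteoglycans and collagens sit highest, with medians of 1.23 and 0.89, and called genes are red (positive) or blue (negative).

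A pair of keratins passed among 31 epithelial keratins and adhesion genes (2 positive, 0 negative, median 0.28). Krt8 is a keratin of luminal epithelium. It was at 7.07, 7.22 and 6.56 in 67NR controls and at 8.38 to 9.22 (median 8.54) in KD tumors, and in 66cl4 at 13.07, 13.09 and 13.39 and at 13.09 to 13.31 (median 13.19). The 67NR KD tumors were all above their controls and far below all 66cl4 tumors. Between lines, the KD effect differed by 1.66 ± 0.23 (adjusted p = 0.00191), with a 3.20-fold rise in 67NR and a ratio of 1.01 in 66cl4.

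Krt14, a basal and myoepithelial keratin, was at 6.93, 7.01 and 7.59 in 67NR controls and at 8.03 to 9.91 (median 8.77) in KD tumors. In 66cl4 it was at 7.10, 8.34 and 5.59 in controls and at 5.60 to 6.09 (median 5.78) in KD tumors. The 66cl4 controls were thus widely spread and 1 of them lay below its KD group. The line difference of 2.94 ± 0.64 (adjusted p = 0.0347) was the largest positive one, and it passed in 8 of the 18 fits that each left out 1 tumor. Krt14 was read from a probe set of the _x_at kind. Its other probe sets gave 2.88 and 0.15, the last at a mean level of 3.93. Epcam, an epithelial adhesion molecule, gave 2.08 ± 0.68 (adjusted p = 0.195). The mean level of the 31 genes was 5.54 to 5.73 in 67NR controls, 5.83 to 6.07 in 67NR KD tumors, 6.01 to 6.71 in 66cl4 controls and 6.08 to 6.18 in 66cl4 KD tumors.

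**Figure D4:**
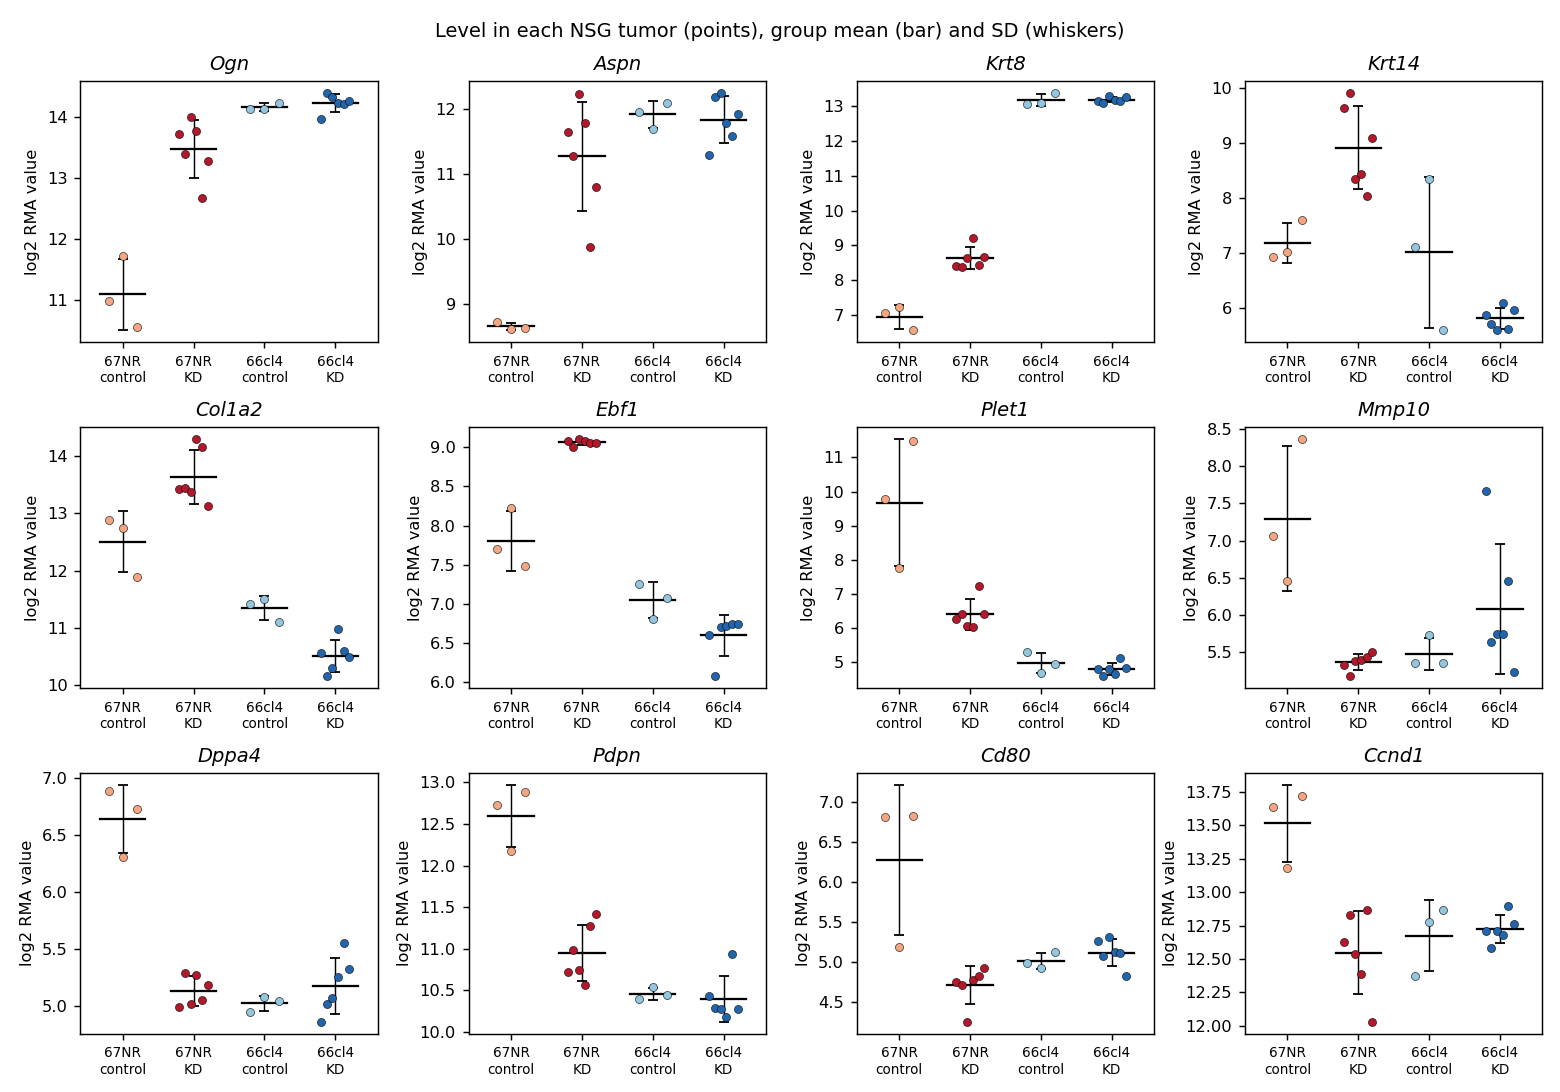
Log2 level of 12 genes in each NSG tumor (points), with group mean and SD, for 67NR and 66cl4 controls and BPTF KD tumors. Ogn, Aspn and Krt8 are higher in 67NR KD tumors than in their controls, and Plet1, Mmp10, Dppa4, Pdpn, Cd80 and Ccnd1 are lower in 67NR KD tumors. Col1a2 and Ebf1 have KD effects of opposite sign in the 2 lines, with no 66cl4 effect past the threshold.

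Some growth factor and signaling genes had KD effects of opposite sign in the 2 lines. Grb14, an adaptor that inhibits the insulin receptor, was at 5.45, 6.44 and 5.34 in 67NR controls and at 6.69 to 7.23 (median 7.03) in KD tumors. In 66cl4 it was at 7.11, 6.48 and 6.30 in controls and at 5.52 to 5.98 (median 5.80) in KD tumors. The groups did not overlap in either line, and the line difference was 2.13 ± 0.30 (adjusted p = 0.00191), from a 2.43-fold rise in 67NR and a ratio of 1.80 the other way in 66cl4 (unadjusted p = 0.0008). As for Col1a2, the 66cl4 value took part in the choice of the gene, and no gene passed adjustment in 66cl4.

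Pdgfc, a platelet-derived growth factor, had the same form. It was at 10.01, 10.15 and 9.79 in 67NR controls and at 10.71 to 11.16 (median 10.90) in KD tumors, and at 10.14, 10.41 and 9.93 and at 8.99 to 9.81 (median 9.48) in 66cl4. That gave a line difference of 1.67 ± 0.22 (adjusted p = 0.00191). Ebf1, a transcription factor of B cells and mesenchymal cells, was at 7.70, 8.23 and 7.49 in 67NR controls and at 9.01 to 9.11 (median 9.07) in KD tumors, against 7.26, 6.81 and 7.08 and 6.08 to 6.75 (median 6.71) in 66cl4. Its line difference was 1.71 ± 0.22 (adjusted p = 0.00191), and 0 of 9 B cell markers passed (median -0.05).

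Such crossing was seen in 14 of the 72 positive genes, where 6 of 6 KD tumors lay above every control in 67NR and 6 of 6 lay below in 66cl4. Over all genes 3.76% were fully above in 67NR and 1.05% fully below in 66cl4. Among the 47 negative genes 3 crossed the other way, where 3.1% of all genes were fully below in 67NR and 3.32% fully above in 66cl4. These counts use the contrast that chose the genes and are a description. The shares of all genes are for each line alone, and the share that crossed in both lines is not given.

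Other large positive line differences were found in genes of varied roles. Sfmbt2, a Polycomb-related gene, was at 5.08, 5.73 and 4.55 in 67NR controls, 6.72 to 7.41 (median 7.16) in KD tumors, and 7.89 to 8.54 over the 66cl4 KD tumors, with a line difference of 1.95 ± 0.29 (adjusted p = 0.00243). Igfbp6, a binding protein of insulin-like growth factors, gave 2.06 ± 0.40 (adjusted p = 0.0191), Ak4, a mitochondrial adenylate kinase, 1.97 ± 0.36 (adjusted p = 0.0123) and Gsg1 2.01 ± 0.42 (adjusted p = 0.0284). Tmeff1 gave 1.70 (adjusted p = 0.00297). Pcdhb9, a clustered protocadherin whose close paralogs share sequence and may share probes, gave 2.12 ± 0.47 (adjusted p = 0.0371) and passed in 6 of the 18 fits.

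Plekha1, an adaptor that binds phosphoinositides, was at 10.06, 10.42 and 10.04 in 67NR controls and at 10.87 to 11.23 (median 11.17) in KD tumors. In 66cl4 it was at 9.91, 10.09 and 10.18 and at 9.95 to 10.12 (median 10.07). The line difference was small but tight, 0.93 ± 0.15 (adjusted p = 0.00538). Of 21 imprinted genes 2 passed, both positive: Peg3, a zinc finger gene, at 1.71 ± 0.32 (adjusted p = 0.0159), and Grb10, a relative of Grb14, at 1.40 ± 0.30 (adjusted p = 0.0332). Their other probe sets did not show it, with line differences of 0.03 and 0.22 for Peg3 and of 0.04 and 0.1 for Grb10. Of 30 chemokines 1 passed, Ccl27a, at 1.31 ± 0.29 (adjusted p = 0.0409), which passed in 4 of the 18 fits.

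The most negative line difference was that of Plet1, a placenta-expressed surface protein of epithelial progenitors, and Mmp10 was the second. The sequences before both starts are shown because these are the 2 most negative genes. They are the 250 upstream bases on the plus strand of chromosome 9, GRCm38.p6, at chr9:50494275-50494524 and chr9:7502092-7502341, with the same capitals.
Plet1: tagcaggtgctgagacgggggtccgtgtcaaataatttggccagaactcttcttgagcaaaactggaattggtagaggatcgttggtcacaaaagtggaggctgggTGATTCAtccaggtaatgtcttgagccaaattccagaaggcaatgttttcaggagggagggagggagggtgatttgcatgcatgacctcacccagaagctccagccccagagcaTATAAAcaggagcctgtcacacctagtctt
Mmp10: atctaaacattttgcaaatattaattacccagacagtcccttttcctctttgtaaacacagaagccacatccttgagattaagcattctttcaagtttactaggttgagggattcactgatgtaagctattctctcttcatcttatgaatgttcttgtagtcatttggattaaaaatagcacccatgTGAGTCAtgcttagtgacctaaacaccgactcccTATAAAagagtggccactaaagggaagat
TGANTCA stood at -144 in Plet1, as TGATTCA, and at -63 in Mmp10, as TGAGTCA, and TATAAA at -30 and -29. Only the match in Mmp10 has the letters of the AP-1 motif. These are matches of letters, and no factor was measured at them.

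Plet1 was at 9.79, 7.75 and 11.49 in 67NR controls and at 6.02 to 7.24 (median 6.33) in KD tumors. It was at 5.29, 4.69 and 4.95 in 66cl4 controls and at 4.59 to 5.12 (median 4.80) in KD tumors. The 67NR controls differed widely among themselves but stayed above every KD tumor. The line difference was -3.10 ± 0.69 (adjusted p = 0.0387) and the fall in 67NR 9.70-fold, and it passed in 3 of the 18 fits without 1 tumor. The other probe set of Plet1 did not show it, with a line difference of -0.03 and a KD effect of 0.13 in 67NR. Its mean level was 5.73, against 6.17 for the probe set used.

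Mmp10 was at 7.06, 6.46 and 8.37 in 67NR controls and at 5.18 to 5.51 (median 5.39) in KD tumors, overlapping the 66cl4 controls at 5.35, 5.73 and 5.36. The 66cl4 KD tumors ran from 5.23 to 7.67 (median 5.74). Its line difference was -2.53 ± 0.58 (adjusted p = 0.0448), and it passed in 4 of the 18 fits.

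Dppa4, a chromatin-associated gene of pluripotent cells, had the smallest adjusted p of all genes. It was at 6.89, 6.31 and 6.73 in 67NR controls and at 4.99 to 5.29 (median 5.12) in KD tumors, and at 4.95, 5.08 and 5.04 and at 4.86 to 5.55 (median 5.16) in 66cl4. The 67NR KD tumors thus reached the 66cl4 level. The 66cl4 controls lay below 5.5, the first quartile of mean level over all genes, so a fall in 66cl4 may not be readable. The resulting line difference was -1.66 ± 0.20 (adjusted p = 0.00175).

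Pdpn, podoplanin, a mucin-type surface protein of lymphatic endothelium, fibroblasts and invading carcinoma cells, was at 12.73, 12.17 and 12.89 in 67NR controls and at 10.56 to 11.42 (median 10.87) in KD tumors. In 66cl4 it was at 10.39, 10.54 and 10.44 and at 10.18 to 10.94 (median 10.29). The line difference was -1.59 ± 0.28 (adjusted p = 0.00919) and it passed in all 18 fits without 1 tumor. Cd80, the costimulatory ligand of CD28 and CTLA4, was at 6.82, 5.19 and 6.83 in 67NR controls and at 4.25 to 4.93 (median 4.77) in KD tumors, against 4.99, 4.92 and 5.12 and 4.82 to 5.31 (median 5.12) in 66cl4. The KD effect differed between lines by -1.68 ± 0.36 (adjusted p = 0.0347), and it passed in 6 of the 18 fits and neither in the fit of 36 tumors nor without moderation. Other probe sets of Cd80 gave smaller line differences, of 0.0, -0.07 and -0.89. The last had a KD effect of -0.62 in 67NR, at a mean level of 5.46 against 5.16 for the probe set used.

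Ankrd33b gave -2.18 ± 0.31 (adjusted p = 0.00235), with 67NR controls at 9.01, 8.36 and 9.59 and KD tumors at 6.46 to 7.47 (median 6.88). Kctd4 gave -1.38 ± 0.19, the GTPase gene Rab6b -1.46 ± 0.20 (both adjusted p = 0.00191), and the serine protease gene Prss22 -1.37 ± 0.21 (adjusted p = 0.00265). Pla2g5, a secreted phospholipase, gave -2.42 ± 0.48 (adjusted p = 0.0212) and Hao1, a peroxisomal oxidase, -2.38 ± 0.54 (adjusted p = 0.0424). Lhx8, a homeobox gene, gave -2.32 ± 0.53 (adjusted p = 0.0427), with 67NR controls at 5.68, 7.87 and 4.96 above KD tumors at 3.55 to 4.02. The transporter genes Slco1a5 and Slc22a4 gave -1.76 ± 0.40 (adjusted p = 0.0403) and -1.63 ± 0.37 (adjusted p = 0.0445). The other probe set of Slco1a5 gave -0.22, with 0.04 in 67NR, and Slco1a5 did not pass with the mean of its probe sets. Both lay at low mean levels, 4.91 for the one used and 4.43, below the first quartile of 5.5 over all genes. Stac2 gave -1.76 ± 0.38 (adjusted p = 0.0323), and the fifth KD tumor of 67NR, at 7.13, lay above the second control at 6.92. D17H6S56E-5 gave -2.24 ± 0.49 (adjusted p = 0.0347). Among these genes Lhx8 passed in 3 of the 18 fits, Hao1, Slco1a5 and Slc22a4 in 5, and Stac2 and D17H6S56E-5 in 8.

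Genes that respond to MAPK signaling were read next. Of 15 MAPK feedback and response genes 13 had a negative line difference, where 47.5% of all genes had a positive one. The median was -0.51, and 1 passed, Ccnd1, the cyclin that drives entry into S phase. Ccnd1 was at 13.64, 13.18 and 13.72 in 67NR controls and at 12.03 to 12.87 (median 12.59) in KD tumors, against 12.37, 12.78 and 12.87 and 12.58 to 12.90 (median 12.71) in 66cl4. Its line difference was -1.01 ± 0.23 (adjusted p = 0.0463). It passed in 4 of the 18 fits without 1 tumor, and not in the fit of 36 tumors, without moderation, after another quantile normalization or with the integrity covariate. Etv5, an ETS factor induced by MAPK signaling, gave -0.83 ± 0.38 (adjusted p = 0.47).

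Among 11 EGF family ligands and receptors 0 passed in the line difference (limma, 3 negative at an unadjusted p under 0.05). In 67NR 3 of the 11 fell past the threshold, where 1.86% of all genes did. Ereg, epiregulin, was at 10.84, 9.19 and 11.00 in 67NR controls and at 7.65 to 9.02 (median 8.42) in KD tumors, and at 3.36 to 4.08 in 66cl4 KD tumors. The lines differed by -1.84 ± 0.44 (adjusted p = 0.0569). Btc, betacellulin, gave -1.87 ± 0.45 (adjusted p = 0.0579) and Hbegf -1.36 (adjusted p = 0.12).

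Of 35 proliferation genes 33 had a negative line difference, where 47.5% of all genes had a positive one. Among the 35, 0 passed, with 5 negative at an unadjusted p under 0.05 (limma) and a median of -0.33. Their mean level was 10.17 to 10.34 in 67NR controls, above the 67NR KD tumors at 9.27 to 10.03, and it was 9.45 to 9.64 and 9.36 to 9.64 in 66cl4. Foxm1, a mitotic transcription factor, gave -0.73 ± 0.21 (adjusted p = 0.123). Of 18 type I interferon-stimulated genes 16 had a negative value and 0 passed (2 negative at an unadjusted p under 0.05), with medians of -0.15 in 67NR and 0.23 in 66cl4. Genes of a list may move together, and the counts of signs were not tested.

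No member of 30 of the 38 lists examined passed. Over all genes 47.5% had a positive line difference. Macrophage markers had a median of -0.11 (16 measured), neutrophil markers -0.02 (11), NK cell markers -0.11 (12), T cell markers -0.21 (13), adipocyte markers 0.36 (12) and skeletal muscle markers -0.14 (17). Mast cell markers had a median of -0.70 (8 measured, 7 negative), with Cma1 at 8.32, 6.89 and 9.27 in 67NR controls and 5.80 to 7.44 (median 6.72) in KD tumors and a line difference of -1.68 ± 0.72 (adjusted p = 0.412). Of 15 milk and secretory genes 0 passed, and the casein gene Csn3 gave -2.39 ± 1.04 (adjusted p = 0.437). In the NURF list of 6 genes the median was 0.04 and 0 passed.

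The BALB/c tumors are separate samples in which the same difference could be read. There 0 genes passed (0.0%, limma, smallest adjusted p = 0.485, 1195 or 9.64% at an unadjusted p under 0.05), and the median standard error was 0.252 against 0.196 in NSG. Of the 72 genes positive in NSG, 58 (80.6%) were positive in BALB/c, where 48.8% of all genes were, and 5 (6.94%) had that sign at an unadjusted p under 0.05, against 4.09% of all genes. Of the 47 negative genes 40 (85.1%) were negative, where 51% of all genes were, and 11 (23.4%) did so at an unadjusted p under 0.05, against 5.55%. The median BALB/c line difference was 0.44 for the positive and -0.79 for the negative genes, smaller than the 1.30 and -1.27 that chose them in NSG.

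Single genes differed in how they read in BALB/c. Emilin1 gave 1.00 (unadjusted p = 0.0006) and Col1a2 2.32 (unadjusted p = 0.0103) in BALB/c, and Mmp10 gave -2.83 (unadjusted p = 0.0282). Ebf1 gave 0.05 (unadjusted p = 0.918), Plekha1 -0.18 and Cd80 0.13 (unadjusted p = 0.801). Bgn, not called in NSG, gave 3.08 (unadjusted p = 0.00227). The difference between hosts, tested for all genes in one fit of 36 tumors, passed for 0 genes (0.0%, limma), with 919 at an unadjusted p under 0.05 (7.41%). Its unadjusted p was 0.0001 for Plekha1, 0.0021 for Ebf1 and 0.008 for Cd80, all named for their NSG values.

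The level of these genes was also read in BALB/c controls, which took no part in the choice of genes. Of the 47 negative genes 45 were higher in 67NR than in 66cl4 BALB/c controls, 30 of them past the threshold (63.8%), where 7.47% of all genes were. Of the 72 positive genes 48 were lower in 67NR, 21 of them past the threshold (29.2%), where 6.5% of all genes were. Krt8 was 6.47 lower and Ogn 6.29 lower in 67NR than in 66cl4 controls in BALB/c, and Plet1 was 6.72 higher. In NSG the median level of the 47 negative genes was 7.32 in 67NR controls and 5.83 in 66cl4 controls. The first quartile of mean level over all genes was 5.5. A fall in 66cl4 from so low a level may not be readable on the array, and its part in the negative line differences was not tested.

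Read the other way, 926 genes were higher in 67NR than in 66cl4 BALB/c controls past the threshold. Of these, 30 (3.24%) had a negative and 1 (0.108%) a positive called line difference in NSG, against 0.379% and 0.581% of all genes. Of 805 genes lower in 67NR past the threshold, 21 (2.61%) were called positive and 0 negative. Of the 38 genes more than 3 log2 units higher in 67NR, 9 (23.7%) were called negative, and their median line difference in NSG was -1.44. Of the 65 genes lower in 67NR by more than 3 log2 units, 6 (9.23%) were called positive, with a median of 0.29. The 67NR KD mean was nearer than the 67NR control mean to the 66cl4 controls in 43 of the 47 negative and 27 of the 72 positive genes, a count that shares its samples with the line difference.

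**Figure D5:**
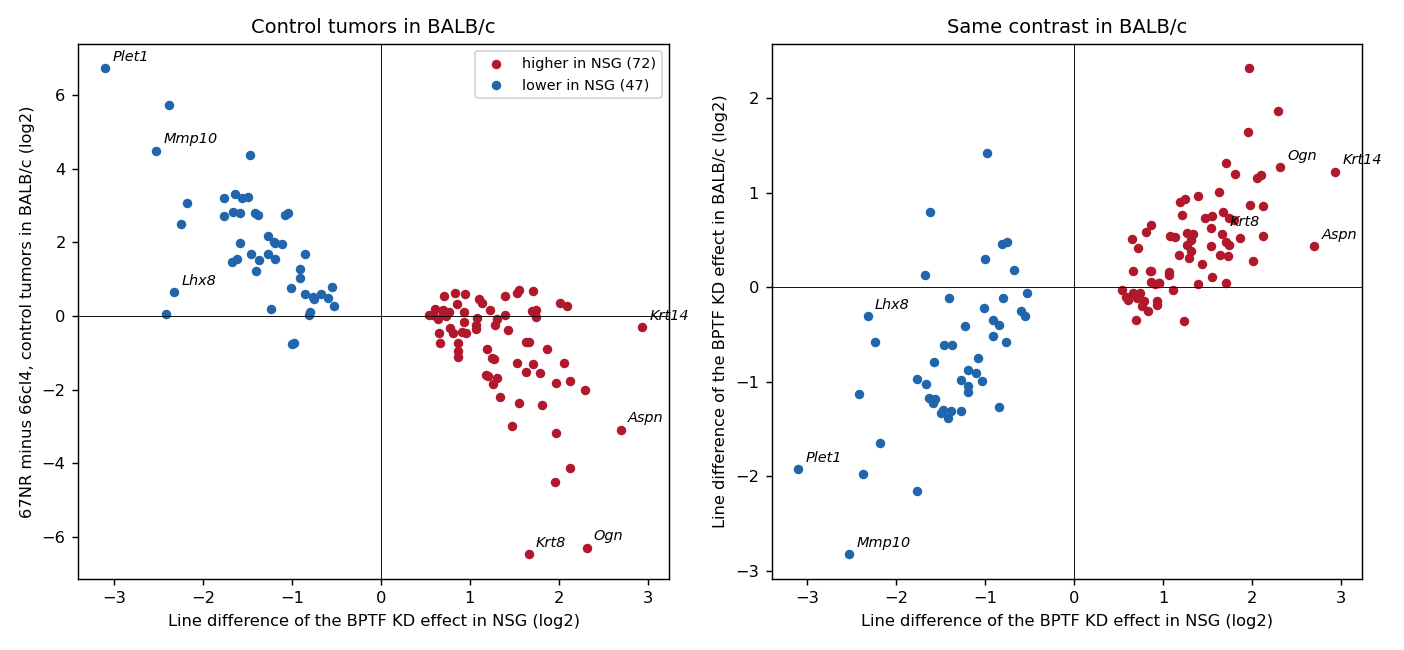
For the 119 called genes, the 67NR minus 66cl4 difference between BALB/c controls (left, log2) and the BALB/c line difference of the KD effect (right, log2) against the NSG line difference. Negative genes lie mostly at higher 67NR control levels (45 of 47), and 58 of 72 positive and 40 of 47 negative genes keep their sign in BALB/c.

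Other probe sets of the called genes bear on their identity. The array held 73 further probe sets for 53 of the 119 genes, and 70 of these had the sign of the probe set used while 2 had the opposite sign. The 70 include values near 0, such as -0.03 for Plet1. A value at least 0.5 times as large was found for 45 of the 73. Of the genes called, 7 positive and 2 negative ones were read from probe sets of the _x_at or _s_at kind.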

How the data were processed

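Total RNA of 36 tumors, freed of necrotic tissue by the authors, was labeled and read on Affymetrix mouse arrays. The authors deposited log2 values made by RMA, a method that corrects background, sets all arrays to the same distribution and summarizes probe sets, so a shift of all genes in a tumor cannot be seen. Its version and annotation are not given in the sources used here. All 36 columns were matched by title and used as deposited. Of 22690 probe sets, 20393 carried 1 symbol, 691 several and 1606 none. Symbols were updated through the Entrez ID for 20364 probe sets, and the probe set with the highest mean over all tumors stood for each of 12394 genes (1189 read from _x_at or _s_at probe sets). The number of arrays limits the precision.

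Groups came from the sample labels. limma 3.58.1 in R 4.3.3 was fitted to the 18 NSG tumors and in the same way to the 18 BALB/c tumors. The difference between hosts was a 3-way interaction over 36 tumors. Bptf and RNA integrity were tested by exact permutation within lines. Tables, permutations and figures were made in Python 3.11.15 (pandas 2.3.3, numpy 2.4.6, matplotlib 3.10.9, scipy 1.17.1), and the fit was tested on simulated data. Promoter sequences came from RefSeq.

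Genes were named by a rule: the 12 largest called differences and the 5 smallest adjusted p in each direction, the 5 smallest in 67NR in each direction, up to 4 members of each of 38 lists, all members of 4 families, and Bptf. Plet1, Ogn, Aspn and Mmp10 were chosen for sequences with values known. The tumors, the lists and the rule were chosen with earlier results of these data known. Alternatives were a fit of 36 tumors, no moderation, a trended and robust prior, array weights, another quantile normalization, subtraction of array medians, no dim 25% of genes, all probe sets, the mean of probe sets, an integrity covariate, a replicate block, leaving out each tumor and, chosen after seeing the data, leaving out the fifth KD tumor of both lines.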

Additional observations from a re-analysis of the deposited data

Results flagged for a closer look

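The BPTF KD effect differed between 67NR and 66cl4 in 119 genes by the test of the difference itself, with the values given above.

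In 94 groups of 6 KD tumors, 9 had a tumor far from the other 5 by Dixon's criterion, or 9.57%, where chance gives about 1 in 20. Among 67NR KD tumors these were the third for Cd80 (4.25, the lowest), the fourth for Krt8 (9.22, the highest) and for Slc22a4 (5.33, the lowest), and the fifth for Plet1 (7.24, the highest) and for Stac2 (7.13, the highest). Among 66cl4 KD tumors these were the second for Ebf1 (6.08, the lowest) and for Emilin1 (7.98, the highest), and the fifth for Pcdhb9 (8.90, the lowest) and for Pdpn (10.94, the highest). The fifth KD tumor of each line stands apart across genes as well, and these tumors held 4 of the 9.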

How the results depend on the processing

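The 72 positive and 47 negative line differences became 4 and 1 in a fit of all 36 tumors (each among the 72 and 47), 32 and 15 without moderation, 758 and 697 with array weights, which gave the fifth KD tumor of each line a weight of 0.27 and 0.37 and the second 66cl4 control one of 7.93, and 139 and 79 without the fifth KD tumor of both lines. In 67NR, 253 and 231 genes became 80 and 56 in the fit of 36 tumors, 402 probe sets lower when all were counted, 1250 and 1043 with array weights, and 718 and 604 without the fifth KD tumor of both lines. In 66cl4, 0 genes passed except with array weights, where 1141 and 600 did, and without the third 66cl4 control, where 0 and 6 did. With 1 tumor left out, the line difference gave 23 to 185 positive and 11 to 132 negative genes, lowest without the third 67NR control (23 positive) and the second 66cl4 control (11 negative), and highest without the second 67NR control. The 67NR effect gave 70 to 541 higher and 59 to 440 lower genes, lowest without the third 67NR control and highest without the fifth KD tumor. The line difference of Bptf probe sets then ran from -0.64 to -0.20, -0.87 to -0.13, -0.30 to -0.13 and -0.13 to 0.27. The replicate block, with numbers that do not pair the tumors (21 same-number pairs, r from -0.16 to 0.70, 7 above 0.1, the own number closest in 11 of 42), gave 119 positive and 65 negative genes, and 678 and 531 in 67NR. Of 40 called genes named here, 16 passed in every fit without 1 tumor, 36 failed in the fit of 36 tumors, 24 failed without moderation, and 3 (Grb14, Emilin1 and Plekha1) passed under all alternatives run. None of the 40 changed sign. With the other alternatives the counts stayed within 1.5 times, and the BALB/c and host differences gave 0 genes under all those run for them. The causes were not tested.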
